A study of Mus musculus with 12 samples.

Results

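This report compares mouse fibroblast libraries that carry one label suffix with libraries of the same 4 groups that carry another. Of the 12 libraries of the series, 4 have labels that end in _290419 and 8 have labels that end in _120519, and members were chosen by that suffix alone. The labels do not say what the suffix stands for, although both read like dates. Every group holds 1 library of _290419 and 2 of _120519, so the suffix can be compared within groups.

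RNA was sequenced from cells labelled as mouse embryonic fibroblasts, which the study's methods give as the NIH3T3 line, an immortal mouse fibroblast line. All cells carried a lentiviral vector with a doxycycline-inducible (Tet-on) promoter and were puromycin-selected pools, so the controls carry the vector too. The NLS groups carried the inducible insert for NLS-N-VEGF, the N-terminal part of a long VEGF protein joined to a nuclear localization sequence. The ORF groups carried the insert for N-VEGF without that sequence. Each population was sampled without doxycycline (NLS, ORF) and after 16 hours of doxycycline (NLS dox, ORF dox). Nothing in the labels says that libraries of a group came from separate cultures, so p-values here measure the spread between these libraries. Culture, RNA extraction, library preparation and sequencing run may each have gone with the suffix, and their parts cannot be told apart.

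Fibroblasts build and remodel the extracellular matrix. Under serum, stiffness or TGF-beta they assemble contractile actin fibres that contain smooth muscle alpha-actin. Sparse, fed cultures cycle, whereas crowded or starved cultures of NIH3T3 cells leave the cycle and raise arrest genes, among them targets of FOXO factors. When amino acids run short or proteins misfold, translation of the transcription factor ATF4 rises, and with it genes of amino acid transport and synthesis. These programmes are known to move with culture density, feeding and passage.

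Total counts per library lay between 13549331 and 18982127, so that 3 counts, taken as the floor of detection, correspond to 0.158 to 0.221 CPM, the counts of a gene per 1e+06 counts of its library. This floor covers counting error only, whereas the standard errors given below come from the fit and include the spread between libraries. The row of the construct insert held 5 to 12 counts in the 6 libraries without dox. With dox it held 48 and 35 counts in the NLS _120519 libraries against 173 in the NLS _290419 library, and 121 and 149 against 268 in the ORF libraries. All 10 fibroblast markers were detected in every library, Pdgfra at 93.0 to 431 CPM and Vim at 3644 to 5292 CPM of the unscaled library totals. CPM values of single genes given below are scaled by TMM factors. The share of counts on protein-coding genes was 98.5% to 99.0% with suffix _120519 and 97.9% to 98.5% with _290419, and the joint share of Lars2 and Mir6236 was 0.130% to 0.222% and 0.147% to 1.47%. The exact permutation p-values were 0.0123, the smallest this design allows, for the first share and 0.0247 both for the second and for the counts of the construct, which were higher with _290419, and all were 0.0576 after adjustment over 7 library measures. Library 1 of ORF with suffix _120519, called ORF 1_120519 below, stood apart from its partner (chi-square per degree of freedom 26.6, against 1.76 to 5.02 for the other _120519 pairs and 17.1 to 76.1 across suffixes), and results that turn on it are given with and without it.

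The suffix was the largest difference among the libraries. On the first principal component, with 74.2% of the variance of the 1000 most variable genes, the 8 libraries of _120519 lay between -14.1 and -3.31 and the 4 libraries of _290419 between 13.1 and 18.9. Of 13607 genes tested with edgeR's quasi-likelihood test, 6207 (45.6%) were called at an adjusted p under 0.05. Of all tested genes 22.1% were higher in _290419 and 23.5% were lower, and the median log2 fold change over all of them was 0.0054. Most differences were small, since 3.68% of genes were called and at least 2-fold higher and 1.29% were called and at least 2-fold lower. In bulk RNA a lower level can mean less RNA per cell or fewer cells of a state, which cannot be told apart.

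The 4 groups mostly moved together. A gene is called separated here when the _290419 library of each group lay beyond both _120519 libraries of that group, and 18.6% of all genes tested were separated upwards and 20.0% downwards. Of the 6207 called genes, 5703 (91.9%) had the same sign in all 4 groups, a share given as a description, since the same 4 differences entered the calls. The 4 within-group differences share no library. Over 12057 genes whose mean was 1 CPM or more, the differences of a group correlated with the mean of the other groups at r = 0.82 in NLS, 0.74 in NLS dox, 0.79 in ORF and 0.84 in ORF dox. The slope on that mean was 0.64 in NLS dox, compared with 0.85 in NLS and 1.04 in ORF and in ORF dox. The differences were thus smallest in NLS dox. These correlations run across genes, which are not independent replicates, and carry no p.

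**Figure D1:**
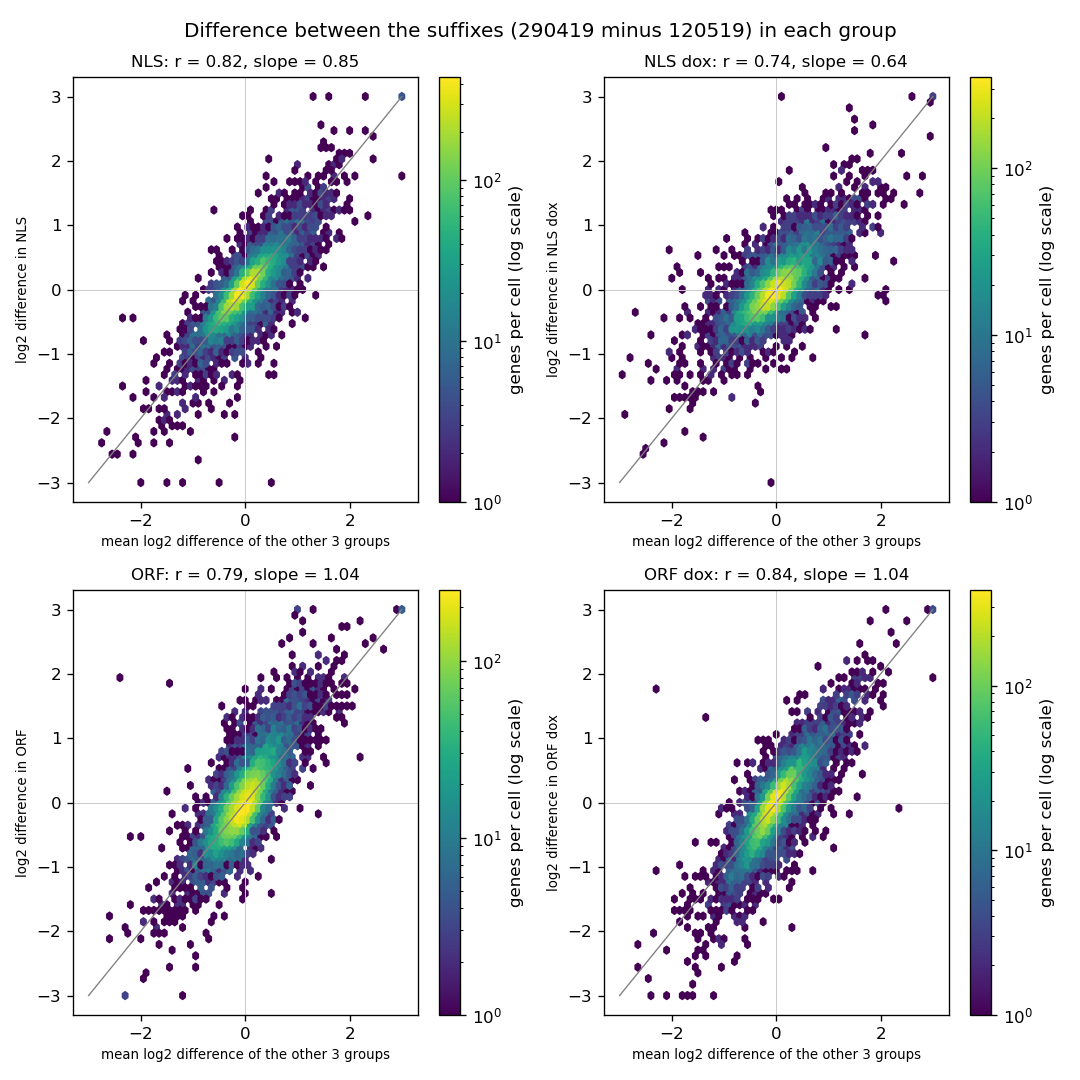
Log2 difference between the suffixes (_290419 minus _120519) in each group against the mean log2 difference of the other 3 groups, for 12057 genes whose mean was 1 CPM or more. Colour gives the number of genes per cell on a log scale, the grey line marks equality and values are cut at 3 on either side. The cloud follows the line with slope 0.64 in NLS dox, compared with 0.85 to 1.04 in the other groups.

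Gene lists were grouped by programme: matrix, cell cycle, lineage, metabolism, contractility, and RNA and handling. Of the tested members, 69.9% were called in the matrix lists (65 of 93), 65.0% in the lineage lists (26 of 40), 60% in the contractility lists (48 of 80), 52.6% in the cell cycle lists (50 of 95) and 42.6% in the metabolism lists (81 of 190), beside 45.6% of all genes. In the RNA and handling lists 49.2% were called (63 of 128). The shares in metabolism and in RNA and handling were thus near that of all genes. The directions within a programme were mixed, and only some lists moved largely one way.

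**Figure D2:**
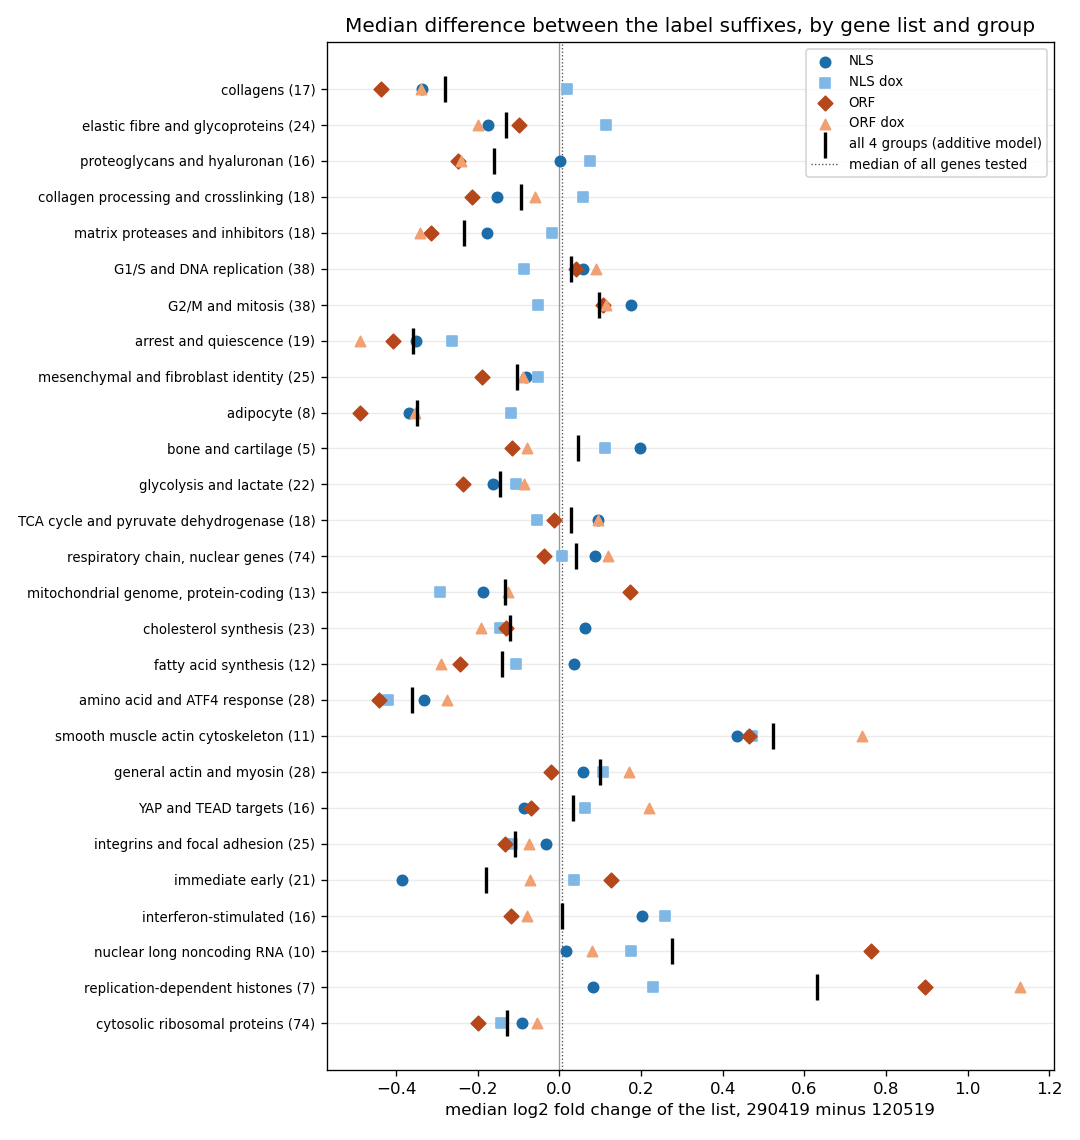
Median log2 fold change (_290419 minus _120519) of each gene list, with the number of tested members in brackets. Coloured marks give the 4 groups, the black bar the model over all 4 groups and the dotted line the median of all genes tested (0.0054). The smooth muscle actin list lies between 0.43 and 0.74 in the 4 groups, the arrest list between -0.49 and -0.26 and the ATF4 list between -0.44 and -0.28, whereas the collagen median is 0.018 in NLS dox and between -0.44 and -0.34 in the other groups.

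Most genes of the smooth muscle actin type rose. Of 11 tested genes of the smooth muscle actin cytoskeleton, 9 were higher in _290419 and none was lower, and all 9 were separated upwards in 4 of 4 groups. The median log2 fold change was 0.52, with group medians of 0.43 in NLS, 0.47 in NLS dox, 0.46 in ORF and 0.74 in ORF dox. Acta2, which encodes smooth muscle alpha-actin, lay between 42.4 and 101 CPM, with a median of 62.0, in the 8 libraries of _120519. In the _290419 libraries it was 144 CPM in NLS, 215 in NLS dox, 177 in ORF and 279.9 in ORF dox. The ranges of the suffixes did not overlap, and the log2 fold change was 1.60 ± 0.16 (SE, adjusted p = 3.26e-05), or 3.03-fold. Tropomyosins stabilise actin filaments, and Tpm1 was 273 to 351 CPM with suffix _120519 and 411, 448, 417 and 479.6 CPM with _290419 in NLS, NLS dox, ORF and ORF dox (1.44-fold, adjusted p = 2.83e-06).

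Further members rose with less abundance or smaller differences. Myl9, a regulatory light chain of smooth muscle and nonmuscle myosin, was 3.64 to 7.14 CPM with suffix _120519 and reached 12.6 CPM in the ORF dox library of _290419 (log2 fold change 0.87 ± 0.16, adjusted p = 0.000435). The difference was 0.32 in NLS and 1.70 in ORF dox, so its ranges overlapped between groups although each group was separated. Cnn2, a calponin that binds actin, was 1.47-fold higher (adjusted p = 7.84e-06), and Cald1 (caldesmon), Tpm2 and the myosin light chain kinase Mylk were 1.28-fold, 1.36-fold and 1.30-fold higher. Actg2 and Synpo2 were higher too, from under 1 CPM in every _120519 library. Cnn1 (log2 fold change -0.03, adjusted p = 0.915) and Smtn (0.00014, adjusted p = 0.999) were not called. The other 5 genes of the list, Tagln, Myh11, Myocd, Des and Lmod1, did not pass the filter on low counts and were not tested.

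The wider actin and adhesion genes were less uniform. Of 28 general actin and myosin genes, 10 were higher and 6 lower, with a median log2 fold change of 0.10. Gamma-actin (Actg1) was 2110 to 2856 CPM with suffix _120519 and 3170, 3173, 3310 and 3642 CPM with _290419, a 1.44-fold difference (adjusted p = 3.19e-05) with no overlap. Beta-actin (Actb), which is often used as a reference gene, had a log2 fold change of 0.15 (adjusted p = 0.127). The filamins Flnc and Flna, which crosslink actin, were 1.40-fold and 1.21-fold higher. Nonmuscle myosin heavy chain IIB (Myh10) was lower by 1.30-fold (adjusted p = 4.66e-05), and the focal adhesion protein vinculin (Vcl) by 1.19-fold. Contractile genes and adhesion genes thus did not move as a block.

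Of 25 integrin and focal adhesion genes, 3 were higher and 11 lower (median -0.11). The called share was 56%, beside 45.6% of all genes, and 11 of the 14 called had the same sign in all 4 groups. Itgb8, a subunit of a TGF-beta-activating integrin, was 11.1 to 15.1 CPM with suffix _120519 and 5.64, 6.75, 6.06 and 4.29 CPM with _290419. It fell in every group, by 1.13 on the log2 scale in the model (adjusted p = 2.93e-07). Tns1 (tensin), which links integrins to actin, was lower by 1.39-fold, and Itgb7 was higher by 1.83-fold (adjusted p = 8.67e-07). Among 16 targets and components of YAP and TEAD signalling, which responds to tension and density, 5 were higher and 4 lower. The targets Ankrd1 and Ctgf stood out: Ankrd1 was 14.4 to 29.1 CPM with suffix _120519 and 38.6, 47.3, 44.9 and 50.3 CPM with _290419 (2.22-fold, adjusted p = 3.49e-07). Ctgf was 2.11-fold higher (adjusted p = 4.16e-05), with 23.2% of its exon bases shared with another annotated gene. The target Cyr61, in contrast, was lower in NLS and higher in the other groups, as described with the genes that differ between groups. Yap1 itself had a log2 fold change of -0.061 (adjusted p = 0.313), and the coactivator Wwtr1 and the factor Tead2 were lower by 1.23-fold and 1.33-fold.

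**Figure D3:**
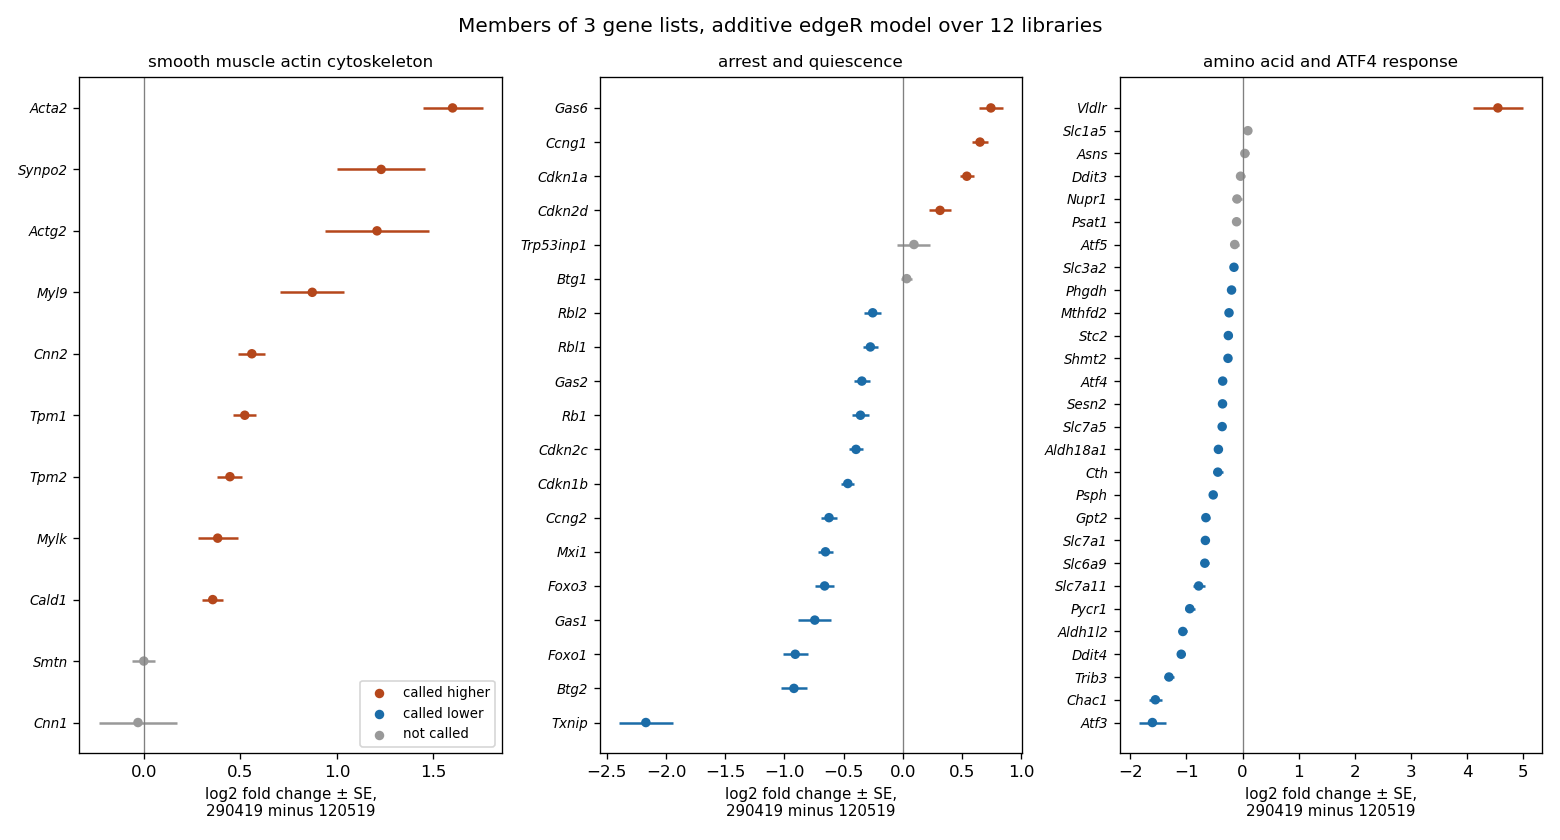
Log2 fold change (_290419 minus _120519) with its standard error for every tested member of 3 lists, from the additive edgeR model over 12 libraries. Red marks genes called higher, blue genes called lower and grey genes not called. In the smooth muscle actin list 9 of 11 members are higher, in the arrest list 13 of 19 are lower and in the ATF4 list 21 of 28 are lower. The value of Vldlr rests on 0 to 0.074 CPM in the _120519 libraries and depends on the prior count of the fit.

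Matrix genes changed in both directions. Of 17 tested collagens 9 were lower and 3 higher, with a median log2 fold change of -0.28, beside 0.0054 over all genes. The fibrillar collagen Col3a1 was 405 to 645 CPM, with a median of 576, in the _120519 libraries. In the _290419 libraries it was 278 CPM in NLS, 295 in NLS dox, 223 in ORF and 158 in ORF dox. No _290419 library reached the _120519 range, and the difference was -1.22 ± 0.15 (log2, adjusted p = 0.000119), or 2.33-fold. The basement membrane chains Col4a1 and Col4a2 were lower by 1.53-fold and 1.34-fold, and the microfibrillar chains Col6a1, Col6a2 and Col6a3 by 1.47-fold, 1.39-fold and 1.30-fold. In the fit without ORF 1_120519, the log2 difference in NLS dox was only -0.080 for Col6a1 and 0.022 for Col6a2. In NLS, ORF and ORF dox it was -0.54, -0.90 and -0.80 for Col6a1 and -0.48, -0.84 and -0.66 for Col6a2. Col5a2, a chain of the collagen that starts type I fibrils, was 169 to 294 CPM with suffix _120519 and 280.4, 511, 274 and 569 CPM with _290419. It rose 1.64-fold (adjusted p = 9.18e-06). The log2 difference was 0.28 in NLS, 0.95 in NLS dox, 0.61 in ORF and 0.98 in ORF dox.

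Type I collagen did not pass the test. Col1a1 was 456 to 626 CPM with suffix _120519 and 413, 629, 372 and 439 CPM with _290419 in NLS, NLS dox, ORF and ORF dox. It was below the _120519 libraries in NLS, ORF and ORF dox and above them in NLS dox, and the common difference was -0.28 ± 0.13 (log2, adjusted p = 0.101). Without the NLS dox library of _290419 the difference was -0.51 (adjusted p = 8.37e-05), and without NLS dox 2_120519 it was -0.36 (adjusted p = 0.0112). Its partner chain Col1a2 had a log2 fold change of 0.11 (adjusted p = 0.271). The rarer collagens Col7a1, which anchors basement membranes, and Col12a1 were 3.22-fold and 2.31-fold higher, from at most 2.95 and 4.90 CPM in the _120519 libraries.

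Among 24 glycoproteins and elastic fibre genes 9 were higher and 10 lower. Thrombospondin-1 (Thbs1), a matricellular protein that can activate latent TGF-beta, was 25.1 to 46.7 CPM, with a median of 34.6, with suffix _120519. With _290419 it was 119.7 CPM in NLS, 139 in NLS dox, 130.5 in ORF and 118 in ORF dox. The lowest of these was over 2 times the highest _120519 value, and the log2 fold change was 1.88 ± 0.10 (adjusted p = 3.48e-08). Nid1 (nidogen-1), a linker of laminin and collagen IV, was 189.6 to 243 CPM with suffix _120519 and 397, 467, 445 and 452 CPM with _290419 (2.03-fold higher, adjusted p = 1.46e-09). The latent TGF-beta binding protein Ltbp2 was 1.94-fold higher, and Timp1, an inhibitor of matrix metalloproteinases, 1.73-fold higher (adjusted p = 1.18e-07). Fibronectin (Fn1) went the other way, at 3224 to 4036 CPM with suffix _120519 and 2579, 2760, 2592 and 1973 CPM with _290419. It was lower by 1.47-fold (adjusted p = 1.72e-05), and the laminin chains Lamc1 and Lamb1 by 1.34-fold and 1.23-fold.

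Proteoglycans and matrix enzymes were divided as well. Of 16 proteoglycan and hyaluronan genes 5 were higher and 6 lower. Biglycan (Bgn) and the hyaluronan synthase Has2 were 1.44-fold and 1.37-fold higher, and perlecan (Hspg2) was lower by 1.39-fold. Lumican (Lum) was at most 0.063 CPM in the _120519 libraries, under the floor of detection, and 1.86, 1.36, 1.17 and 0.335 CPM in the _290419 libraries of NLS, NLS dox, ORF and ORF dox, so no fold is given. Of 18 genes that process and crosslink collagen 2 were higher and 6 lower, among them the collagen chaperone Serpinh1 (1.28-fold lower) and the prolyl hydroxylases P3h1 and P4ha1 (1.27-fold and 1.23-fold lower). In libraries with dox alone P3h1 was not called (log2 fold change -0.16, adjusted p = 0.0792, against -0.35). Lysyl oxidase (Lox) was not called (log2 fold change -0.13, adjusted p = 0.222). Of 18 matrix proteases and inhibitors 6 were higher and 9 lower. Timp3, which has 21.3% of its exon bases in an overlap with another gene, was lower by 2.12-fold and the aggrecanase relative Adamts12 by 1.79-fold. Of the 65 called matrix genes, 55 had the same sign in all 4 groups.

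**Figure D4:**
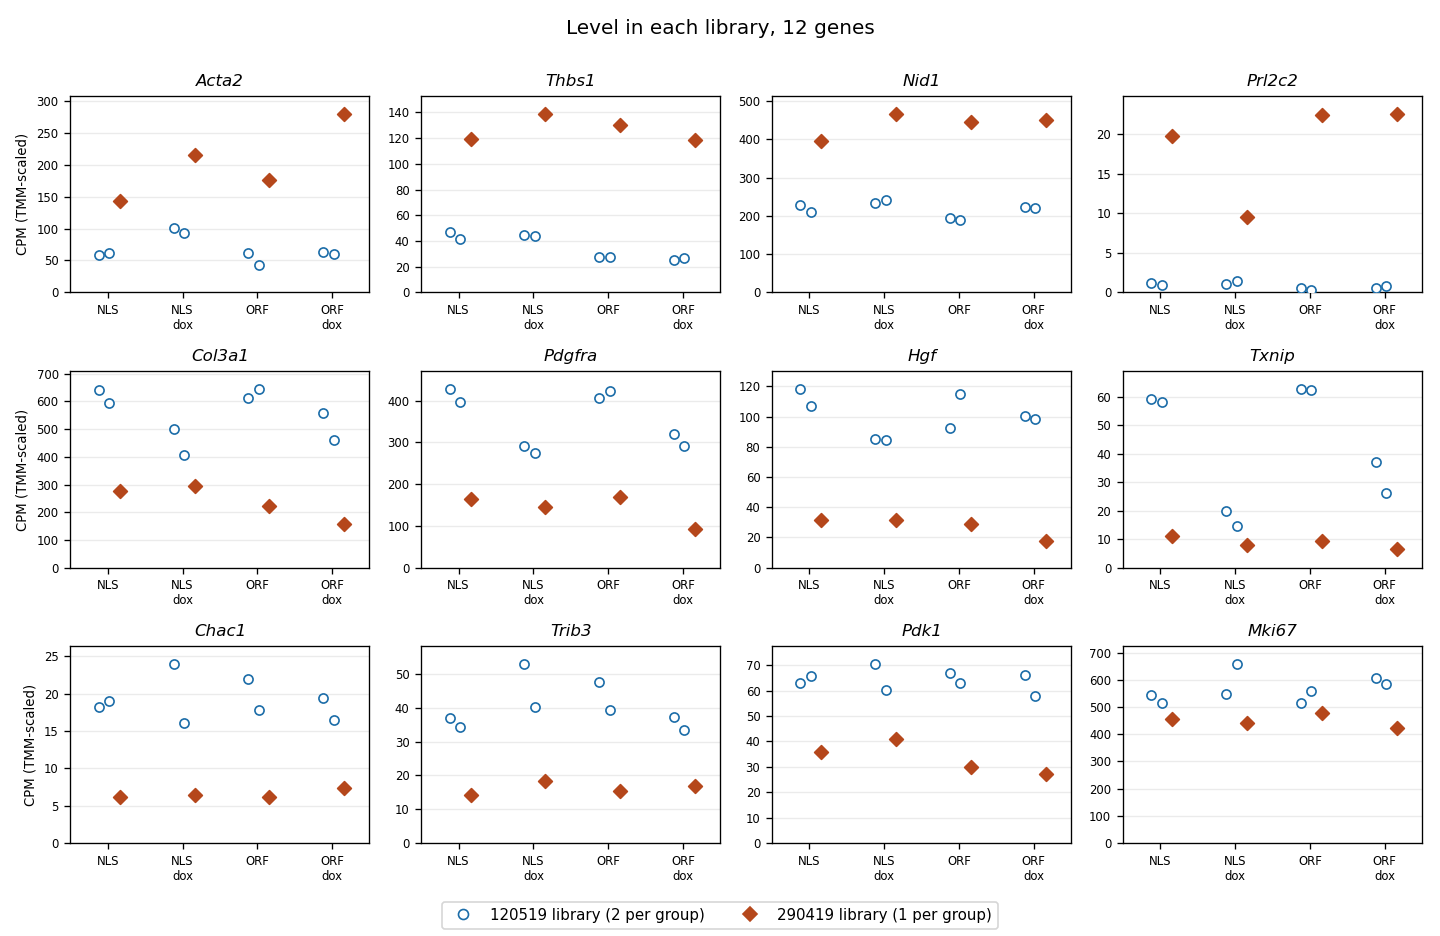
TMM-scaled CPM of 12 genes in each library, by group, with open circles for the 2 libraries of suffix _120519 and filled diamonds for the library of suffix _290419. Acta2, Thbs1, Nid1 and Prl2c2 lie above the _120519 libraries in all 4 groups. Col3a1, Pdgfra, Hgf, Txnip, Chac1, Trib3, Pdk1 and Mki67 lie below them in all 4 groups, although the gap is small for Mki67 (423 to 479 CPM against 513 to 657 CPM).

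Most genes of arrest and quiescence fell. Of 19 tested genes 13 were lower and 4 higher, the median was -0.36, and all 17 called genes had the same sign in all 4 groups. Txnip, an arrestin-like protein that limits glucose uptake and responds to glucose and to FOXO factors, was 14.7 to 62.7 CPM, with a median of 47.6, with suffix _120519. With _290419 it was 11.2 CPM in NLS, 7.93 in NLS dox, 9.44 in ORF and 6.56 in ORF dox. All 4 values lay below every _120519 library, and the difference was -2.17 ± 0.23 (log2, adjusted p = 5.58e-05), with 19.4% of its exon bases in an overlap with another gene. The log2 difference was -2.39 in NLS, -1.14 in NLS dox, -2.73 in ORF and -2.26 in ORF dox. The _120519 libraries of NLS dox, at 19.9 and 14.7 CPM, were the lowest of that suffix. The FOXO genes Foxo1 and Foxo3 were lower by 1.88-fold and 1.58-fold, and the antiproliferative gene Btg2 by 1.89-fold. The cyclin-dependent kinase inhibitors moved apart: Cdkn1b (p27), which accumulates in quiescent cells, was lower by 1.38-fold (adjusted p = 3.79e-06) and Cdkn2c by 1.32-fold. Cdkn1a (p21), a target of p53, was 50.04 to 67.2 CPM with suffix _120519 and 77.6, 83.9, 81.8 and 96.6 CPM with _290419, 1.45-fold higher with no overlap (adjusted p = 3.03e-06). The p53 target Ccng1 was 1.57-fold higher.

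Genes of the cycle itself moved little. Of 38 genes of G1/S and DNA replication 9 were higher and 5 lower, with a median of 0.027, and no group median exceeded 0.090 in size. The called share was 36.8%, beside 45.6% of all genes. Prim1 (DNA primase), Ccne1 (cyclin E1) and Orc6 were 1.38-fold, 1.37-fold and 1.28-fold higher, while Mcm7 of the replicative helicase was lower by 1.24-fold. Cyclin D1 (Ccnd1) was 232 to 322 CPM with suffix _120519 and 299, 285, 308 and 289 CPM with _290419, and the ranges overlapped. It was not called with all libraries (log2 fold change 0.15, adjusted p = 0.0744) but was without ORF 1_120519 (0.18, adjusted p = 0.0027) and without the NLS dox library of _290419 (0.20, adjusted p = 0.0344), and its exons overlap those of another gene over 23.4% of their bases. Of 38 genes of G2/M and mitosis 13 were higher and 6 lower, with a median of 0.097 that was -0.011 with an offset for GC content and length. Cdc25c and Birc5 (survivin) were 1.33-fold and 1.27-fold higher. Ccnf (cyclin F) and the proliferation marker Mki67 were lower by 1.56-fold and 1.26-fold, Mki67 at 513 to 657 CPM with suffix _120519 and 456, 442, 479 and 423 CPM with _290419 (adjusted p = 0.000751). Mki67 was not called in libraries without dox alone (log2 fold change -0.18, adjusted p = 0.145, against -0.33). Of the 38 mitotic genes 50% were called, beside 45.6% of all genes. Of the 19 called, 13 had the same sign in all 4 groups, beside 91.9% of all called genes. The group medians were 0.18 in NLS, -0.051 in NLS dox, 0.11 in ORF and 0.11 in ORF dox. Mitotic genes thus moved in both directions, each by less than 2-fold.

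The markers of fibroblast identity changed without a common direction. Of 25 tested genes 6 were higher and 10 lower, and 13 of the 16 called had the same sign in all 4 groups. Over all lineage lists 20 of 26 called genes had the same sign, beside 91.9% of all called genes. Pdgfra, a receptor for platelet-derived growth factor and a marker of many fibroblasts, was 276 to 428 CPM, with a median of 358, with suffix _120519. In the _290419 libraries it was 165 CPM in NLS, 145 in NLS dox, 168 in ORF and 92.9 in ORF dox. It was lower by 2.49-fold with no overlap (log2 fold change -1.32 ± 0.09, adjusted p = 1.85e-08). Its relative Pdgfrb was lower by 1.15-fold. In the fit without ORF 1_120519, the log2 difference of Pdgfrb was 0.046 in NLS dox and -0.24, -0.37 and -0.36 in NLS, ORF and ORF dox. Thy1, a surface marker, was 119.5 to 165 CPM with suffix _120519 and 186, 214, 183 and 186 CPM with _290419, 1.44-fold higher (adjusted p = 1.01e-06), and S100a4 was 1.32-fold higher. The mesenchymal transcription factors Zeb1 and Zeb2 were lower by 1.42-fold and 1.34-fold, and Prrx1 by 1.16-fold.

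Markers of other mesenchymal lineages were mostly too low to test. The adipocyte regulator Pparg, the bone factor Sp7 and the myogenic factors Myod1, Myog and Myf5 did not pass the filter. Of 8 tested adipocyte genes 5 were lower and 1 higher, including the lipid droplet coat protein Plin2 (1.29-fold lower) and the factor Ebf1 (1.37-fold lower), while Fabp4 was higher from at most 0.589 CPM. Of the 6 called adipocyte genes, 4 had the same sign in all 4 groups. Runx2, a regulator of bone formation, was 64.0 to 89.9 CPM with suffix _120519 and 72.8, 90.6, 78.6 and 83.5 CPM with _290419. Its ranges overlapped (log2 fold change 0.047, adjusted p = 0.521), although it was called with the offset for GC content and length (0.16, adjusted p = 0.0245). Phex, an endopeptidase of bone, was 1.32-fold higher. Of the muscle genes, cardiac troponin T (Tnnt2) was 4.89 to 13.3 CPM with suffix _120519 and 28.5, 22.9, 23.3 and 31.7 CPM with _290419, 3.23-fold higher (adjusted p = 9.41e-05), and Mef2c was lower by 1.35-fold.

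Most genes of the amino acid and ATF4 response fell. Of 28 tested genes 21 were lower and 1 was higher, with a median of -0.36, and all 22 called genes had the same sign in all 4 groups. Group medians were -0.33 in NLS, -0.42 in NLS dox, -0.44 in ORF and -0.28 in ORF dox. Chac1, a glutathione-degrading enzyme, was 16.1 to 23.9 CPM, with a median of 18.6, with suffix _120519. With _290419 it was 6.21 CPM in NLS, 6.39 in NLS dox, 6.18 in ORF and 7.37 in ORF dox, so the 4 libraries were close to each other and below all others (log2 fold change -1.55 ± 0.12, adjusted p = 6.28e-08). Trib3, a pseudokinase that feeds back on ATF4, was 33.5 to 52.9 CPM and 14.4, 18.3, 15.4 and 16.9 CPM, lower by 2.48-fold. The mTORC1 inhibitor Ddit4 was lower by 2.13-fold (adjusted p = 1.62e-08) and the folate enzyme Aldh1l2 by 2.09-fold. The amino acid carriers Slc7a1, Slc6a9, Slc7a11 and Slc7a5 were lower by 1.58-fold, 1.59-fold, 1.72-fold and 1.29-fold, and Atf4 itself by 1.28-fold. Asns (log2 fold change 0.041, adjusted p = 0.67), Psat1 (-0.11, adjusted p = 0.194) and Ddit3 (-0.036, adjusted p = 0.743), all known ATF4 targets, were not called. The exception among called genes, Vldlr, was at most 0.074 CPM with suffix _120519, under the floor, and 0.785, 1.24, 0.933 and 1.27 CPM with _290419.

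Promoter sequences of these genes are shown because the list is held together by a shared factor. ATF4 with a C/EBP partner binds composite elements of the form TGATGNAA, and both strands of the 250 bases before the start site were searched in RefSeq promoters of build GRCm38.p6. The element was found in 7 of 24 list genes with a promoter entry, beside 3.91% of 27025 promoters and 2.49% of those of 9870 tested genes. Because the list was chosen for this factor, its share says nothing about the suffixes. Over all called genes the element was in 2.96% of promoters of genes called lower and 2.63% of those called higher. The stretches below run 5′ to 3′ on the strand of the gene, with the match in capitals. Chac1 (chr2:119351009-119351096, + strand), Atf3 (chr1:191183396-191183483, - strand), Slc7a11 (chr3:50443614-50443719, - strand) and Pycr1 (chr11:120643804-120643891, - strand) belong to genes that fell, Asns (chr6:7693210-7693272, - strand) to a gene that was not called and Vldlr (chr19:27216780-27216867, + strand) to the gene that was higher.
Chac1: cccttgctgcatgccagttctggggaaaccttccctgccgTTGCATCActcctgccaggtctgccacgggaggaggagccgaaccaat
Atf3: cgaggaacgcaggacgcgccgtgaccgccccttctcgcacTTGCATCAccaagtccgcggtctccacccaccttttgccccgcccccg
Slc7a11: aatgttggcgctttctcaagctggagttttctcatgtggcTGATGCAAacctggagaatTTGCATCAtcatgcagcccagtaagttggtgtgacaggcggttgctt
Pycr1: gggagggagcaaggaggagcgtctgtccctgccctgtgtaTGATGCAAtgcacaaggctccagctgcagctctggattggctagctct
Asns: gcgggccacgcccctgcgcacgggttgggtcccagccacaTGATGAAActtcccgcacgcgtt
Vldlr: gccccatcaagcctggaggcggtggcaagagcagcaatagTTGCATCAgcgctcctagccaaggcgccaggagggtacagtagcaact
A match is a description of letters and not of binding. The 7 genes comprised 4 that fell, Asns and Nupr1, which were not called, and Vldlr.

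The same search was made for the other lists that moved together. The element TTGTTTAC, bound by FOXO factors, was found in 3 of 17 arrest genes (Btg1, Mxi1 and Txnip), beside 1.16% of all promoters and 0.871% of those of tested genes. Of these, Mxi1 and Txnip were lower, and Btg1 was not called. Over all called genes the FOXO element was in 1.03% of promoters of genes called lower and 0.717% of those called higher. The CArG box, bound by serum response factor in contractile genes, was found in 2 of 10 smooth muscle actin genes (Cnn2 and Myl9), beside 1.62% and 1.34%. It was in 1.60% of promoters of genes called lower and 1.62% of those called higher. The arrest and smooth muscle actin lists were also chosen by function, so their shares say nothing about the suffixes. Only exact matches within the 250 bases were counted, so a gene without a match may still hold a variant or more distant element. The stretches of Txnip (chr3:96557796-96557883, + strand), Myl9 (chr2:156775263-156775352, + strand) and Cnn2 (chr10:79988504-79988593, + strand) are shown with the match in capitals.
Txnip: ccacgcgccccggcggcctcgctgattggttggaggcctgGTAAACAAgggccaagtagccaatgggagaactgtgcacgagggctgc
Myl9: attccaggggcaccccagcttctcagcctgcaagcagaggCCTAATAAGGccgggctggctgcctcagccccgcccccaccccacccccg
Cnn2: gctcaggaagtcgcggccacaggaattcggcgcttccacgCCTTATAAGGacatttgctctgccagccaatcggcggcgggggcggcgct

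Part of the glycolysis genes fell, by small amounts. Of 22 genes 10 were lower and 1 higher, with a median of -0.15, and all 11 called genes had the same sign in all 4 groups. The called share, 50%, was near the 45.6% of all genes, and 45.5% of members were lower, beside 23.5% of all genes. Pdk1, a kinase that holds pyruvate out of the mitochondria and a target of hypoxia-inducible factor, was 58.0 to 70.4 CPM with suffix _120519 and 35.8, 40.9, 29.8 and 27.1 CPM with _290419, lower by 1.93-fold with no overlap (adjusted p = 1.41e-07). Lactate dehydrogenase A (Ldha) was 1413 to 2006 CPM and 1212, 1214, 1201 and 1212 CPM, lower by 1.32-fold (adjusted p = 0.000428). The phosphofructokinase Pfkl and the isomerase Tpi1 were lower by 1.48-fold and 1.33-fold, and the glucose carrier Slc2a1 by 1.12-fold. These differences had the same sign in each group.

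Lipid synthesis genes were lower in part. Of 23 cholesterol synthesis genes 10 were lower and 2 higher, among them the regulator Srebf2 (1.31-fold lower), the early enzyme Hmgcs1 (1.29-fold lower, adjusted p = 8.7e-05) and Cyp51 (1.27-fold lower). In libraries without dox alone Cyp51 was not called (log2 fold change -0.20, adjusted p = 0.0943, against -0.34). The group medians were 0.063 in NLS and between -0.19 and -0.13 in the other groups. Of 12 fatty acid synthesis genes 5 were lower and 1 higher, with Acly and Scd1 lower by 1.24-fold and 1.22-fold and malic enzyme Me1 higher by 1.27-fold. Of the 6 called fatty acid genes, 4 had the same sign in all 4 groups. The called shares were 52.2% of the cholesterol and 50% of the fatty acid genes, beside 45.6% of all genes. The lower shares were 43.5% and 41.7%, beside 23.5% of all genes.

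Mitochondrial genes moved in both directions, and the number called rested in part on 1 library. Of 18 genes of the TCA cycle 2 were higher and 2 lower, and of 74 nuclear genes of the respiratory chain 15 were higher and 7 lower (median 0.041, or -0.12 with an offset for GC content and length). The called shares were 22.2% and 29.7%, below the 45.6% of all genes. Without ORF 1_120519, 8 of the 18 and 34 of the 74 were called, 6 and 27 of them higher, beside 52.0% of all genes tested in that fit. Ndufa5 and Ndufa1 of complex I and Uqcrb of complex III were 1.58-fold, 1.40-fold and 1.43-fold higher, and with the same offset the log2 fold change of Uqcrb was 0.14 (adjusted p = 0.0538) against 0.51 without it. Of the TCA cycle genes, Idh3a was 1.20-fold higher, and Idh2 and Suclg2 were lower by 1.24-fold and 1.21-fold. Of the 13 protein-coding genes of the mitochondrial genome 3 were lower and 1 higher (30.8% called), and 8 were called without ORF 1_120519. mt-Nd5 was 1805 to 2889 CPM with suffix _120519 and 1214, 1453, 1487 and 1182 CPM with _290419, lower by 1.79-fold with no overlap (adjusted p = 1.09e-05). mt-Cytb was 1.22-fold higher (adjusted p = 0.046), a call that was lost on leaving out any of 7 libraries in turn, and its value reversed to -0.052 with the offset. The share of counts on these genes was 3.84% to 6.02% with suffix _120519 and 4.50% to 5.31% with _290419, with no difference detected (exact permutation p = 0.617).

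The largest changes over all genes lay outside these lists in part. By log2 fold change, the 8 highest protein-coding genes that were called, separated and at a mean of at least 5 CPM were Prl2c2, Siglecg, Thbs1, Ass1, Lama4, Kif5a, Cryab and Akr1c18. Prl2c2, a proliferin first described in proliferating mouse fibroblasts, was 0.308 to 1.47 CPM with suffix _120519 and 19.7, 9.47, 22.4 and 22.6 CPM with _290419 (21.2-fold, adjusted p = 1.39e-07). Prl2c3, a near-identical paralog, rose alongside it. How reads that match both genes were treated is not given in the sources used here, so the value of each is uncertain. Ass1, the argininosuccinate synthase of arginine synthesis, was 3.82 to 7.39 CPM and then 18.1, 19.2, 15.8 and 20.4 CPM, 3.63-fold higher. Lama4, a laminin chain, was 4.12 to 6.85 CPM and then 22.3, 20.7, 19.3 and 13.9 CPM, 3.58-fold higher. Cryab, a small heat shock protein, was 3.36-fold higher, with 17.0% of its exon bases in an overlap with another gene.

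The 8 lowest genes by the same rule were Txnip, Car6, Il33, Hgf, Heph, Tlr2, Hlf and Capn6. Hepatocyte growth factor (Hgf), which fibroblasts secrete to act on epithelia, was 84.4 to 118 CPM, with a median of 99.4, with suffix _120519. With _290419 it was 31.8 CPM in NLS, 31.7 in NLS dox, 29.1 in ORF and 17.5 in ORF dox, lower by 3.64-fold with no overlap (adjusted p = 5.37e-07). Il33, an alarmin cytokine, was lower by 3.68-fold, and ranged from 1.61 CPM in the ORF dox library to 7.71 CPM in the NLS library of _290419. Tlr2, a receptor for bacterial lipoproteins, was lower by 3.40-fold, and Hlf, a clock-controlled transcription factor, by 3.37-fold. Car6, a secreted carbonic anhydrase, and Heph, an iron oxidase, were lower by 3.70-fold and 3.57-fold. Each of the 8 genes was lower in all 4 groups.

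Genes that respond within minutes to serum or handling were mixed. Of 21 immediate early genes 7 were higher and 9 lower, and 13 of the 16 called had the same sign in all 4 groups. Ier2 and Jun were lower by 1.76-fold and 1.37-fold, and Egr3 was 1.43-fold higher. Fos and Egr1 were not called (adjusted p = 0.127 and 0.162). Among 10 nuclear long noncoding RNAs, Neat1, the scaffold of paraspeckles, was 197 to 401 CPM with suffix _120519 and 699, 728, 733 and 804 CPM with _290419, 2.42-fold higher with no overlap (adjusted p = 5.63e-05), and Rian was lower by 1.94-fold. In that list 3 genes were called, and 6 without ORF 1_120519. Of 7 replication-dependent histone genes, whose mRNAs lack a poly(A) tail, 3 were higher and none lower. Of 16 interferon-stimulated genes 5 were higher and 3 lower. The called shares were 76.2% of immediate early, 30% of long noncoding, 42.9% of histone and 50% of interferon-stimulated genes, beside 45.6% of all genes. Of 74 cytosolic ribosomal protein genes 29 were lower and 4 higher, with a median of -0.13. The called share, 44.6%, was near the 45.6% of all genes, and 39.2% of members were lower, beside 23.5% of all genes. Without ORF 1_120519, 52 of the 74 were called, beside 52.0% of all genes tested in that fit. Rps27l, a p53 target, was 1.35-fold higher (log2 fold change 0.43, but 0.084 with an adjusted p of 0.42 under the offset for GC content and length), and Rps10 was 1.31-fold higher, with 28.7% of exon bases shared. In NLS-N-VEGF libraries alone Rps10 was not called (log2 fold change 0.22, adjusted p = 0.0809, against 0.39).

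Markers of other cell types stayed low with both suffixes. Their summed level, in CPM of unscaled totals, over 7 endothelial markers was 2.82 to 5.02 CPM with suffix _120519 and 3.15 to 4.18 CPM with _290419, and over 8 leukocyte markers 9.0 to 14.2 and 11.5 to 12.9 CPM. Over 8 neural markers it was 4.80 to 8.23 and 6.17 to 8.22 CPM, and over 5 erythroid markers 0.369 to 0.761 and 0.216 to 0.808 CPM. Over 8 epithelial markers it was 2.05 to 3.27 CPM with suffix _120519 and 3.40 to 3.75 CPM with _290419, so that all _290419 libraries were higher. The highest of these markers was Krt14, with a mean of 1.55 CPM over all 12 libraries. The part of these markers in the results was not tested. Cldn5, Cd3e, Krt5, Krt19, Sox2, Sox10, Hba-a2 and Hbb-bt were at 0 in every library. In these lists 10 genes were tested, of which 3 were higher and 2 lower.

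The differences between groups were tested as an interaction of suffix and group. It called 6 genes (0.0441% of those tested), and 1102 genes had an unadjusted p under 0.05. The genes were Gm773, Lars2, Mir6236, Cyr61, Cemip and Igsf10, each with an adjusted p of 0.0276. Cemip, a hyaluronan-degrading protein, was lower in every group, with log2 differences of -1.84 in NLS, -0.75 in NLS dox, -1.82 in ORF and -2.11 in ORF dox. Its _290419 libraries were at 28.1, 28.2, 28.8 and 17.0 CPM, and the _120519 libraries of NLS dox were the lowest of that suffix. Cyr61 was -0.55 in NLS and 0.26, 0.61 and 0.70 in NLS dox, ORF and ORF dox. Lars2 differed by 1.30 in NLS, 3.13 in ORF and 1.68 in ORF dox and by -0.091 in NLS dox, and Mir6236 followed the same order. These are the genes whose joint share of counts was given above as a library measure. In the _290419 libraries that share was 0.544% in NLS, 0.147% in NLS dox, 1.47% in ORF and 0.526% in ORF dox. What lay behind it was not tested. The interaction with dox and the interaction with population called 0 genes with edgeR (932 and 1053 genes at an unadjusted p under 0.05, lowest adjusted p 0.728 and 0.145).

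These counts turn on the _120519 libraries, since the spread in the interaction model comes only from their 4 pairs. Without ORF 1_120519 the interaction with group called 720 genes, without ORF 2_120519 it called 4111, and without any other single _120519 library it called 0 (582 to 800 genes at an unadjusted p under 0.05). Among those 720, 541 were also called between the suffixes, and 415 of these had the same sign in all 4 groups. NLS dox had the smallest absolute difference in 382 of the 541, NLS in 84, ORF in 64 and ORF dox in 11. Of 13929 genes tested in that fit 5.17% were called. Calls in the matrix lists numbered 12 of 17 collagens (6 with the same sign in all groups) and 15 of 24 glycoproteins. The list of the ATF4 response held 2 of 28, a share near the 5.17% of all genes, and that of arrest genes held 3 of 19, a larger share. All 5 of these genes had the same sign in the 4 groups. The smooth muscle actin list held 4 of 11, again a larger share than the 5.17% of all genes. These 4 genes, Acta2, Cnn2, Myl9 and Tpm1, differed between groups in size and not in sign. The fibroblast identity list held 9 of 25 (5 with the same sign in all groups) and the G2/M list 7 of 38 (0 with the same sign). The counts per list come from 11 libraries and were added after the data were seen. Whether the lists differ in these shares was not tested.

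**Figure D5:**
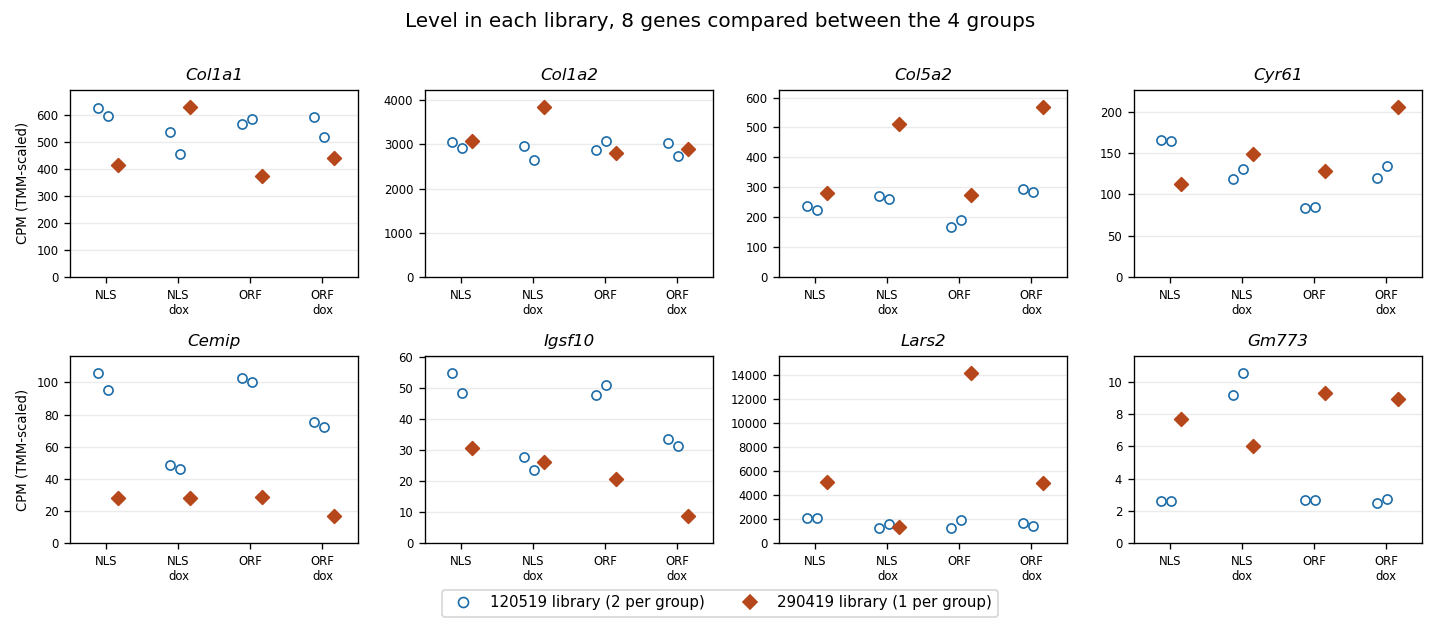
TMM-scaled CPM of 8 genes in each library, by group, with open circles for the 2 libraries of suffix _120519 and filled diamonds for the library of suffix _290419. Col1a1 lies above its _120519 libraries in NLS dox and below them in the other groups, Cyr61 lies below them in NLS and above them in the other groups, and Lars2 is within their range in NLS dox and above it in the other groups.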

How the data were processed

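RNA of 12 libraries was measured by poly(A) RNA sequencing, with single reads of 80 bases on an unstranded kit. Per the study's methods and the submitters' processing notes, the authors trimmed reads with Trim Galore (cutadapt 1.10), aligned them with TopHat2 2.1.0 (Bowtie2 2.2.6) to GRCm38 and deposited raw counts per gene from HTSeq 0.6.1 for release 94 of the annotation. The strand option of the counting is not given in the sources used here, so antisense and overlapping genes cannot be told apart. The deposited count table has 54447 features, of which 1 is the construct insert, left out of all fits. No library was pooled or left out.

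Genes were filtered with filterByExpr by group, scaled by TMM and tested with edgeR 4.0.16 (quasi-likelihood F-test, robust, Benjamini-Hochberg adjustment, R 4.3.3) in a model of group plus suffix. Genes with an adjusted p under 0.05 were called. Fold changes are _290419 over _120519 with standard errors, and differences between groups were tested as the interaction of suffix with group, where the lone _290419 library of a group is assumed to vary like the others. Shares of library counts were tested by exact two-sided permutation within groups, with 81 arrangements. Scripts were tested on simulated counts. Alternatives were DESeq2 1.42.0, other scaling and filters, a replicate block, subsets of libraries, a GC and length offset, and leaving out each library.

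Genes were named by rule: 14 fixed genes (among them Tagln and Pparg, which did not pass the filter), up to 3 members per list with the largest absolute change, and the 8 highest and 8 lowest genes over all lists and genes, all at a mean of at least 5 CPM, called and separated in 4 of 4 groups, plus up to 5 interaction genes. Other members were named after their values were seen. A gene that the rule names is not reported here. The comparison and its gene lists were chosen with earlier results of these data known. Total counts of 13549331 to 18982127 limit precision for genes near the floor of 3 counts.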

Additional observations from a re-analysis of the deposited data

Results flagged for a closer look

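For 6 genes the difference between the suffixes itself differed between the 4 groups (test of the interaction of suffix and group, edgeR quasi-likelihood, adjusted p = 0.0276 for each). The log2 differences in NLS, NLS dox, ORF and ORF dox were 1.54, -0.70, 1.77 and 1.75 for Gm773, which was 9.16 and 10.5 CPM in the _120519 libraries of NLS dox and 2.50 to 2.77 CPM in the other _120519 libraries. They were 1.30, -0.091, 3.13 and 1.68 for Lars2 and 1.20, -0.090, 2.92 and 1.59 for Mir6236. The differences were -0.55, 0.26, 0.61 and 0.70 for Cyr61, a matricellular YAP target, and -1.84, -0.75, -1.82 and -2.11 for the hyaluronan-degrading Cemip. For Igsf10, with 19.8% of its exon bases shared with another gene, they were -0.75, 0.017, -1.25 and -1.86. In each of the 6 genes NLS dox had the smallest absolute difference. The call of each was lost without any single _120519 library of NLS, NLS dox or ORF dox, with adjusted p reaching 0.184 to 0.320 over these settings, and was kept without either ORF library of _120519.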

How the results depend on the processing

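The 6207 calls between the suffixes numbered 5731 with DESeq2 (5681 shared), 6182 with RLE size factors, 6245 with upper-quartile scaling and 4936 to 7249 on leaving out each library (2311 to 3445 higher, 2625 to 3804 lower). No shared gene changed sign except 1 under the GC and length offset. With library number as a replicate block, 4922 genes were called (4764 shared). The numbers did not pair the libraries by the check used. It correlated, across genes, the residual of each _290419 library with the difference of _120519 library 2 minus library 1 of its group. These correlations ran from -0.143 in NLS dox to 0.59 in ORF. In the block fit the median of the integrin list was -0.16 and 14 genes differed between groups. Libraries without dox gave 2889 calls (1281 higher, 1608 lower) and N-VEGF libraries 3287 (1440 higher, 1847 lower), with fewer libraries tested. Genes called at least 2-fold numbered 1098 with at least 1 count, 253 with at least 10 counts in every library, 406 in NLS-N-VEGF libraries and 632 to 834 on leaving out each library. List medians moved for integrins (-0.17 in libraries numbered 2, -0.21 with dox, -0.17 to -0.099 on leaving out each library), identity (-0.17 without dox, -0.030 in NLS-N-VEGF), collagens (-0.076 with dox), and proteases, arrest and adipocyte genes (-0.39, -0.49 and -0.54 in N-VEGF libraries). They also moved for histones (-0.019 with at least 10 counts) and, with the GC and length offset, for G2/M (-0.011), TCA (-0.051), respiratory (-0.12), mitochondrial (-0.47) and ribosomal genes (-0.26). The same offset reversed mt-Cytb to -0.052 (adjusted p = 0.588). Genes that differed between groups numbered 223 with at least 1 count and 0 to 4111 on leaving out each _120519 library. Without ORF 1_120519, 1 differed with dox and 30 between populations, and called members numbered 1 (bone), 8 (TCA), 34 (respiratory), 8 (mitochondrial genome), 6 (long noncoding) and 52 (ribosomal). Calls were also lost in a pair of groups fitted alone, with fewer libraries, for Hmgcs1, Acly, Scd1, Myl9 and Idh2 (without dox), Col3a1, Capn6, Timp3, Phex and Idh3a (with dox), Col5a2 and Tnnt2 (NLS-N-VEGF), and Ldha, Plin2 and Phex (N-VEGF). The other causes were not tested. Among values of named genes, 2368 kept direction and side of the threshold, 66 lost a call, 14 gained a call and 1 reversed.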
